A study of Mus musculus with 27 samples.

Results

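The AP-1 transcription factors *Fos*, *Fosb*, *Fosl1*, *Fosl2*, *Jun*, *Junb*, *Jund* and *Atf3* were followed through 27 RNA-seq libraries of iMEFs, which are mouse embryonic fibroblasts immortalized in culture and carrying *Setdb1* alleles that can be deleted (cKO). These 8 genes were listed by name as candidate activators of the long terminal repeats (LTRs) of VL30, a family of mouse endogenous retroviruses, and not by their values. They were 8 of 21703 genes with a value in every total RNA library, of 21369 in the siRNA libraries and of 21524 in the inhibitor libraries. The iMEFs come from 1 recloned line, hence 1 clone, in which 4-hydroxytamoxifen (4OHT), given for 4 days, triggers deletion of *Setdb1*, a histone H3 lysine 9 methyltransferase. All groups therefore carry the same floxed *Setdb1* alleles, and no library of cells without them was given 4OHT, so that 4OHT itself and the deletion cannot be told apart. The total RNA experiment (9 libraries, ribosomal RNA depleted) compared untreated cells, cells at 4OHT day 5 and cells kept in culture for more than 2 weeks after 4OHT per the labels (long-term KO), with 3 libraries each. Long-term KO also differs from the other groups in time in culture, which cannot be told apart from the deletion. The siRNA experiment (8 libraries) compared siCtrl, siDnmt1, 4OHT + siCtrl and 4OHT + siDnmt1, harvested at day 6, with 2 libraries each. *Dnmt1* encodes the maintenance DNA methyltransferase. The inhibitor experiment (10 libraries) compared untreated cells, cells given 150 nM trichostatin A (TSA, an inhibitor of histone deacetylases) for 24 h, 1 µM PD0325901 (an inhibitor of the kinase MEK) for 24 h, 4OHT day 6 and 4OHT + PD0325901, with 2 libraries each.

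AP-1 is a dimer of leucine zipper proteins. Members of the Fos family (Fos, Fosb, Fosl1, Fosl2) bind DNA only with a partner such as a Jun protein (Jun, Junb, Jund), whereas Jun proteins also pair with each other. The dimers bind the palindrome-like letters TGAGTCA, or TGACTCA on the other strand. *Fos* and *Junb* are immediate early genes that growth factors induce within minutes, in part through the kinases MEK and ERK. *Fosl1* is a later target of the same pathway in fibroblasts, and *Atf3* is a stress-induced relative of the ATF/CREB family that pairs with Jun proteins.

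The U3 part of the LTR holds the enhancer and promoter of a VL30 element, and the letters TGACTC are 6 of the 7 letters of the AP-1 site. Of 70 VL30 U3 class I elements with a U3 sequence in the study's supplement (281 to 314 bases each), 67 held TGACTC and 3 did not. None held GAGTCA, the same letters on the other strand. The whole U3 sequence of 62 elements was found at its place in mm9, and windows of 40 bases were read there for 58 elements with the letters, which fell into 14 different sequences. The 3 most frequent windows are shown to let the site be seen in its context, each from its lowest-numbered element, with TGACTC in capitals.
Window shared by 19 elements, element 4 (chr1:53753592-53753631, minus strand, mm9): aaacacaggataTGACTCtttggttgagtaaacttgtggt
Window shared by 8 elements, element 3 (chr1:26320005-26320044, plus strand, mm9): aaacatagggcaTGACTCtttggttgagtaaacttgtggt
Window shared by 8 elements, element 1 (chr1:7700566-7700605, minus strand, mm9): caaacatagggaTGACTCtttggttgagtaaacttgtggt

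The 3 elements without the letters differed from TGACTC by 1 base each. Counting from 1 at the T of TGACTC, the substitution was C4T in element 26, T5C in element 39 and T5A in element 42. Their windows are shown for comparison, with no capitals because the letters are absent.
Element 26 (chr7:32548425-32548464, minus strand, mm9): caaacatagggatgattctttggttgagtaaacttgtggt
Element 39 (chr12:18801744-18801783, minus strand, mm9): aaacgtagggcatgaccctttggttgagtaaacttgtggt
Element 42 (chr12:89330107-89330146, plus strand, mm9): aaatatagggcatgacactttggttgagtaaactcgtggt
A match is a description of letters and not a bound site. Element 26 held assembled loci with 110 and 196 implied fragments in the 4OHT + siCtrl libraries and with 115 and 151 in the 4OHT day 6 libraries, so that RNA was also assigned to an element without these letters. It also held 239 and 207 with 4OHT + siDnmt1, 52.9 and 108 with TSA and 15.5, 10.0 and 16.3 in long-term KO, and none in the other groups. At 4OHT day 5 element 26 thus held none, but there only 19 to 21 of 71 elements held a locus at all. With 4OHT + siCtrl 51 and 54 elements did, and 53 at day 6. Element 42 held loci only in long-term KO (72.5, 52.4 and 63.4 implied fragments), and element 39 held none in any library. Whether the letters matter for VL30 RNA was not tested. The aligner kept 1 position for a read with several hits, and near-identical copies are uncertain. The promoters of the members, from 250 bases before to 50 bases after the gene start (RefSeq, GRCm38.p6), were searched for TGACTCA and TGACGTCA on both strands. None of the 7 members matched (*Atf3*, *Jun*, *Fosl2*, *Fosb*, *Jund*, *Junb* and *Fos*) held either motif, against 5.2% and 1.79% of all 32851 promoters. At shares this low, no match in 7 promoters says little about the members. The whole motifs are a stricter match than the letters TGACTC counted in the VL30 elements, where the windows shown continue with T and not A. Variants of the motifs were not searched for. *Fosl1* was not among the promoters used here.

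Deposited intervals implied 36.3 to 40.7 M fragments for the total RNA libraries, 13.8 to 15.6 M for the siRNA libraries and 10.9 to 12.7 M for the inhibitor libraries. The values are FPKM (fragments per kb of transcript and per M fragments) as the authors deposited them. *Dnmt1* was at 80.5 and 73.4 FPKM with siCtrl and 12.2 and 10.6 FPKM with siDnmt1. The FPKM of *Setdb1* went against the labels in long-term KO. In total RNA it was 5.95, 5.53 and 5.17 in untreated libraries, 4.16, 4.20 and 6.52 at 4OHT day 5, which overlapped them, and 7.24, 7.32 and 6.96 in long-term KO, where all 3 libraries were above every other. In the siRNA experiment it was 7.40 and 6.48 with siCtrl, 6.08 and 5.54 with siDnmt1, 7.58 and 5.00 with 4OHT + siCtrl and 5.39 and 6.94 with 4OHT + siDnmt1, and libraries with and without 4OHT overlapped. In the inhibitor experiment, *Setdb1* was at 8.76 and 10.1 FPKM in untreated libraries, 5.34 and 5.56 with PD0325901, 0 and 5.30 at 4OHT day 6 and 0 and 0 with 4OHT + PD0325901. The value covers the whole locus and does not separate its deleted part, so for these libraries the deletion rests on the labels. Per the paper, the clone was picked by western blot of Setdb1 for its response to 4OHT. Each group is named as the libraries are labelled. The 8 fibroblast markers summed to between 1314 and 4524 FPKM, with 7 or 8 of them above 0, whereas the 3 haematopoietic and the 3 endothelial markers summed to at most 1.38 and 2.17 FPKM, and the 3 pluripotent markers to at most 2.83 FPKM. For the library labelled PD0325901 replicate 2, a title line in the deposited file names 4OHT with PD0325901, while its label and description give PD0325901 alone, and the label was followed. In this library *Setdb1* was at 5.56 FPKM, *Fosl1* was listed at 0 and VL30 RNA (defined below) was at 6.96, near PD0325901 replicate 1 (5.34, 0 and 3.01) and apart from 4OHT + PD0325901. *Junb* (99.9 FPKM) was near the 4OHT + PD0325901 libraries, and *Echdc1* and *Rnd2*, chosen after their values were seen, were listed at 0 as in every 4OHT library of this experiment, against 4.45 and 9.91 FPKM in PD0325901 replicate 1. Replicates were separate samples in the labels, and nothing says whether they were separate cultures, so p-values measure only the spread between these samples. The replicates of 4OHT + siCtrl stood farthest apart, with a median absolute log2 ratio of 0.30 between them, against 0.072 to 0.25 for other pairs of replicates.

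All 8 members passed the filter of 1 FPKM in every experiment and were tested. In total RNA of untreated cells, *Junb* was the highest member in all 3 libraries, followed by *Jun*, and *Fosb* was the lowest. *Junb* was also the highest in untreated cells of the inhibitor experiment and with siCtrl, followed by *Fos*. With siCtrl, *Fos* stood at 256 and 256 FPKM and *Junb* at 357 and 344 FPKM. The experiments were made and normalized separately, so that levels of one are not tested against another. With 4OHT + siDnmt1, *Atf3* was the highest member in both libraries, and with PD0325901 it was *Fos*. In bulk RNA, fewer cells of a kind and less RNA per cell cannot be told apart.

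**Figure D1:**
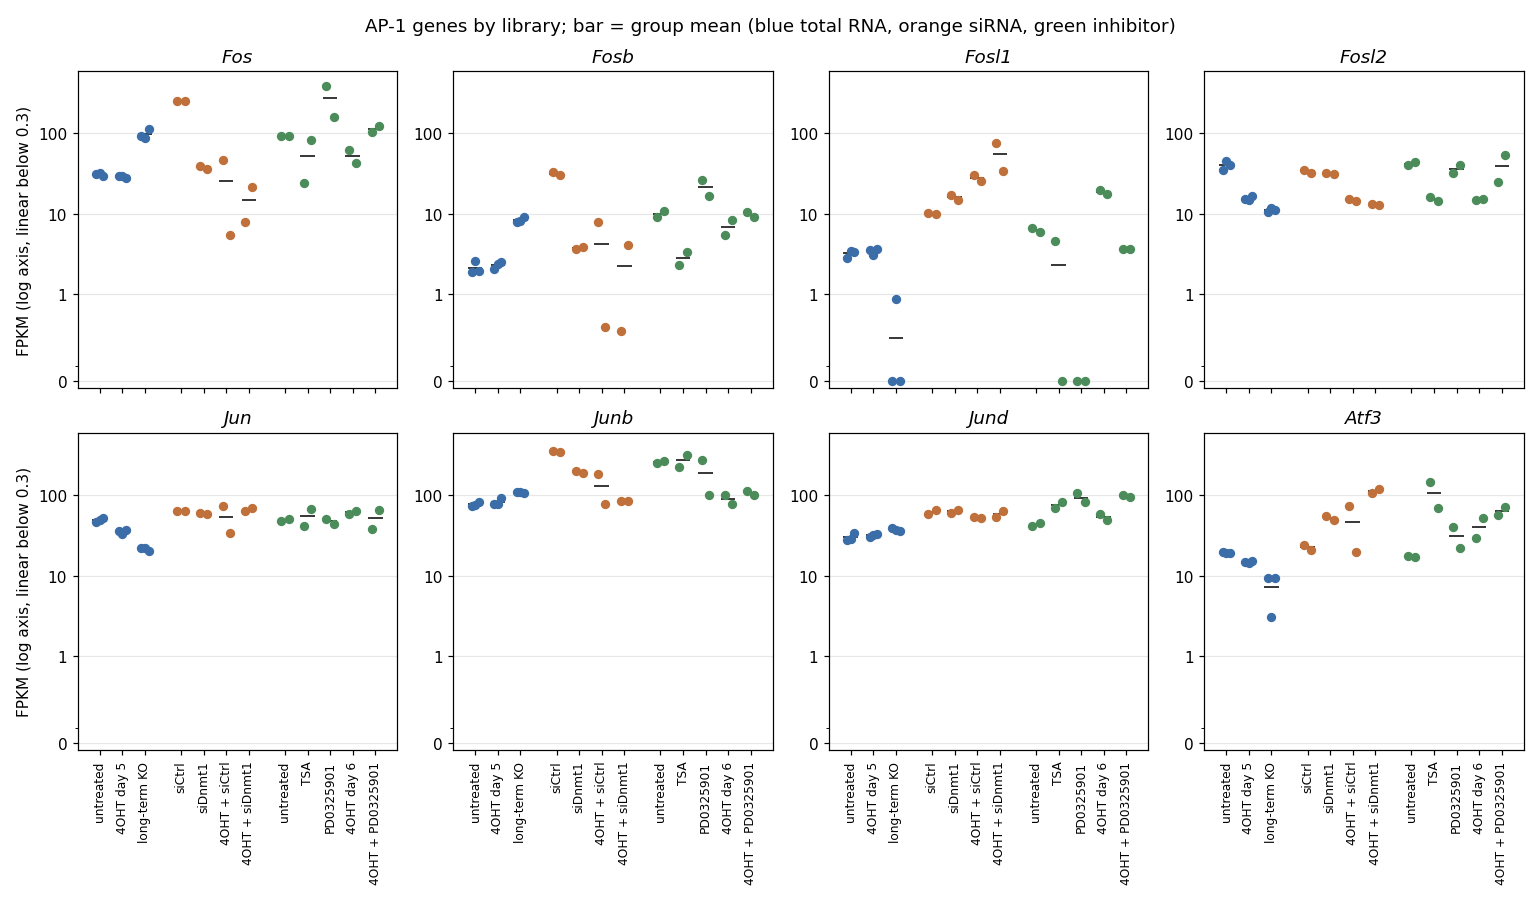
FPKM of each AP-1 gene (one panel per gene, log axis that is linear below 0.3) in the 27 libraries, with a point per library and a bar at the group mean. *Fosl2* is lower in every 4OHT day 5, long-term KO, 4OHT + siCtrl, 4OHT + siDnmt1, 4OHT day 6 and TSA library than in the untreated or siCtrl libraries beside it, and *Fosl1* is listed at 0 in both PD0325901 libraries.

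Groups were compared with limma on log2(FPKM + 0.1), fitted over all libraries of an experiment. A gene was called where the Benjamini-Hochberg adjusted p was under 0.05 and the difference 2-fold or more. Every log2 value below is a fitted difference on that scale, which makes the change of weakly expressed genes look smaller than it is. At 4OHT day 5, 1 of 8 members was called, against 3.45% of all genes tested. In long-term KO, 6 of 8 were called against untreated cells (background 13.7%) and 4 of 8 against 4OHT day 5 (background 12.3%). Against untreated cells *Pdgfrb* was called higher (2.80), the only call among 7 fibroblast markers tested, and the epithelial marker *Epcam* lower (-1.96). *Nanog*, a pluripotent marker that reached 1 FPKM in long-term KO alone, was called higher (1.815). *Nanog* thus entered the test only through the group in which it was called higher. Its call is therefore not read as a result about pluripotent markers. The part of *Pdgfrb*, *Epcam* and *Nanog* in the members' values was not tested. With 4OHT + siCtrl against siCtrl, 4 of 8 were called (background 6.04%), and with 4OHT + siDnmt1 against siDnmt1, 2 of 8 (background 5.69%). No member was called with siDnmt1 against siCtrl (background 4.83%) or with 4OHT + siDnmt1 against 4OHT + siCtrl (background 1.46%), although 2 members in the former and 2 in the latter had an unadjusted p under 0.05 in limma. In the inhibitor experiment, 2 of 8 were called at 4OHT day 6 (background 11.1%), 2 of 8 with PD0325901 (background 7.25%) and 3 of 8 with TSA (background 32.1%). Beside the day 6 calls, 5 of 8 fibroblast markers were called lower (median -1.11, with *Col3a1* at -3.76), their sum was 2199 to 2215 FPKM against 2668 to 2910 in untreated libraries, and the endothelial marker *Kdr* was called higher at 0.528 and 0.808 FPKM against 0.0539 and 0.0445. The part of these markers in the members' values was not tested. The share with TSA was thus near that of all genes. No member was called with 4OHT + PD0325901 against 4OHT day 6 (background 3.78%) or against PD0325901 (background 4.45%), with 2 and 3 members at an unadjusted p under 0.05. No member was called for the interaction of 4OHT with siDnmt1 (background 0.199%) or with PD0325901 (background 0.716%), with 0 and 1 members at an unadjusted p under 0.05. The median log2 fold change of the 8 members was -0.44 in long-term KO against untreated (all genes 0.074), -0.77 with 4OHT + siCtrl against siCtrl (all genes 0.076), -0.12 at day 6 (all genes 0), 0.36 with PD0325901 (all genes -0.069) and -0.50 with TSA (all genes 0.099). With 4OHT + siDnmt1 against siDnmt1 it was -0.66, and there the median of all genes lay at 0.14, or at -0.017 after median-ratio scaling. Of all genes called there, 361 were higher and 241 lower, against 212 and 321 after that scaling, and for the interaction of 4OHT and PD0325901 the split of 58 higher and 23 lower became 31 and 25. Beside the calls of the siRNA experiment, the 8 fibroblast markers summed to 3643 to 3746 FPKM with siCtrl, 2825 to 2941 with siDnmt1, 1841 to 2383 with 4OHT + siCtrl and 1746 to 1941 with 4OHT + siDnmt1, and their part in the members' values was not tested. Comparisons within an experiment share control libraries and are not independent of each other.

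**Figure D2:**
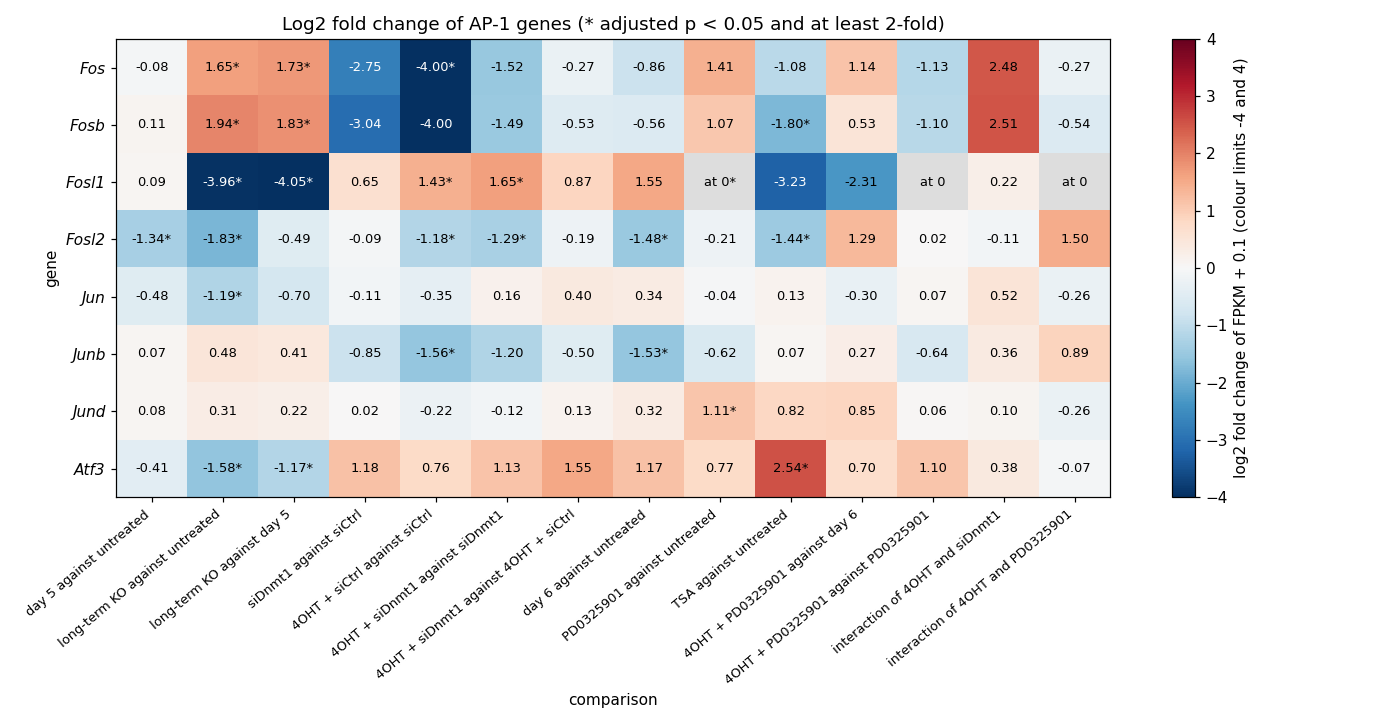
Fitted log2 fold change of FPKM + 0.1 for each AP-1 gene (rows) in each comparison (columns), with an asterisk where the gene was called. Grey cells marked "at 0" are those in which *Fosl1* was listed at 0 in both libraries of a group, so that no fold change is given. *Fosl2* was called lower in 6 comparisons.

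*Fosl2*, which encodes Fra-2, was lower wherever 4OHT had been given without PD0325901. In total RNA it was at 34.9, 45.3 and 40.5 FPKM in untreated libraries, 15.3, 15.1 and 16.9 at 4OHT day 5 and 10.5, 11.9 and 11.2 in long-term KO. The 3 groups did not overlap. The change was called at day 5 (log2 fold change -1.34, SE 0.10, adjusted p = 8.14e-05) and in long-term KO (log2 fold change -1.83, SE 0.10, adjusted p = 3.82e-06). Between long-term KO and day 5 the adjusted p was 0.00405, at a difference under 2-fold (-0.49). In the siRNA experiment *Fosl2* was at 35.1 and 32.6 FPKM with siCtrl, 32.1 and 31.6 with siDnmt1, 15.4 and 14.3 with 4OHT + siCtrl and 13.2 and 12.7 with 4OHT + siDnmt1. It was called lower with 4OHT under both siRNAs (log2 fold change -1.18, SE 0.09, adjusted p = 0.00255 with siCtrl, and log2 fold change -1.29, SE 0.09, adjusted p = 0.00228 with siDnmt1). With siDnmt1 alone the difference was -0.09 (SE 0.09, adjusted p = 0.618). All these calls at day 5, in long-term KO and in the siRNA experiment held with any 1 library left out.

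*Fosl2* in the inhibitor experiment was at 40.5 and 43.5 FPKM in untreated libraries, 14.9 and 15.1 at 4OHT day 6, 16.3 and 14.5 with TSA, 32.3 and 40.7 with PD0325901 and 24.9 and 54.2 with 4OHT + PD0325901. The 4OHT day 6 and TSA libraries did not overlap the untreated ones, and the 2 libraries of 4OHT + PD0325901 lay on either side of them. *Fosl2* was called lower at day 6 (log2 fold change -1.48, SE 0.31, adjusted p = 0.0141) and with TSA (log2 fold change -1.44, SE 0.31, adjusted p = 0.00543). The call at day 6 was lost when any 1 of the 4 libraries was left out, with a log2 fold change of -1.53 to -1.43 and an adjusted p of 0.0548 to 0.0825. With 4OHT + PD0325901 against 4OHT day 6 the difference was 1.29 (SE 0.31, adjusted p = 0.0513), and without 4OHT + PD0325901 replicate 1 it was 1.85 (adjusted p = 0.00416). Same-numbered libraries of these 2 groups deviated together (r = 0.259 across genes), and with the replicate number as a block in limma *Fosl2* was called (adjusted p = 0.0434). The interaction of 4OHT and PD0325901 was 1.499 (SE 0.44, adjusted p = 0.177), and 2.06 (adjusted p = 0.0144) without 4OHT + PD0325901 replicate 1.

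*Fosl1* encodes Fra-1 and lies on chromosome 19 from 5447698 to 5455938 (mm9, plus strand). Its 3′ end overlaps *Ccdc85b* on the other strand (5453163 to 5457563), and the libraries do not mark strand as far as the sources used here say, so that reads in the overlap cannot be told apart. *Fosl1* was higher in every 4OHT library of the siRNA experiment. It was at 10.3 and 10.1 FPKM with siCtrl, 17.1 and 15.1 with siDnmt1, 29.999 and 25.4 with 4OHT + siCtrl and 75.4 and 34.1 with 4OHT + siDnmt1, and no 2 of these groups overlapped. It was called higher with 4OHT under siCtrl (log2 fold change 1.43, SE 0.34, adjusted p = 0.0439) and under siDnmt1 (log2 fold change 1.65, SE 0.34, adjusted p = 0.0337). The first call was lost when any 1 of its 4 libraries was left out (log2 fold change 1.31 to 1.55, adjusted p 0.0524 to 0.209), and the second without siDnmt1 replicate 1 (adjusted p = 0.157) or replicate 2 (adjusted p = 0.190). Without 4OHT + siDnmt1 replicate 1 the second value was 1.08. *Ccdc85b* was at 16.2 and 15.5 FPKM with siCtrl and 31.6 and 29.7 with 4OHT + siCtrl, and its part in the *Fosl1* values was not tested.

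Under the inhibitors *Fosl1* was at 6.67 and 6.00 FPKM in untreated libraries and 20.05 and 17.5 at 4OHT day 6. It was listed at 0 in both PD0325901 libraries, and stood at 3.69 and 3.69 FPKM with 4OHT + PD0325901. Here too an exact 0 can be a failed estimate. The TSA libraries were split, with 4.61 and 0 FPKM. *Fosl1* was thus higher at day 6 than in untreated cells and lower in both groups given PD0325901, with no overlap among these 4 groups. Against untreated cells it was called lower with PD0325901 (adjusted p = 0.0323), with no fold change given because the group is listed at 0, and the call was lost when any 1 library was left out (adjusted p 0.0945 to 0.144). At day 6 the difference was 1.55 (SE 1.44, adjusted p = 0.474), in a fit whose spread includes the TSA replicates. Fitted with untreated and day 6 libraries alone, the adjusted p was 0.00722. In the same way 4OHT + PD0325901 against day 6 was -2.31 (adjusted p = 0.387), or adjusted p = 0.0169 with those groups alone. *Ccdc85b* moved the same way, with 12.2 and 13.9 FPKM in untreated, 29.4 and 26.99 in day 6, 7.70 and 5.48 in PD0325901 and 7.94 and 7.24 in 4OHT + PD0325901 libraries, and its part in the result was not tested. The deposited intervals imply 107 to 130 fragments behind *Fosl1* in the untreated libraries and 66.4 to 73.1 with 4OHT + PD0325901.

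In total RNA *Fosl1* was at 2.86, 3.47 and 3.38 FPKM in untreated libraries and 3.59, 3.10 and 3.65 at 4OHT day 5, which overlap. In long-term KO it was listed at 0 in replicates 1 and 3 and stood at 0.871 FPKM in replicate 2, below every other total RNA library. An exact 0 can be a failed estimate, and *Ccdc85b* beside it was at 4.49, 3.40 and 3.69 FPKM in long-term KO and 5.72, 5.56 and 5.79 FPKM in untreated libraries. It was called lower in long-term KO against untreated (adjusted p = 0.00415) and against day 5 (adjusted p = 0.00382), with a fold change that the pseudocount decides (-1.78 against untreated with a pseudocount of 1, and -6.18 with 0.01).

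*Fos* and *Fosb* are neighbours in function, both immediate early genes whose proteins activate transcription with Jun partners, and their values went together in most groups. In total RNA *Fos* was at 31.1, 32.2 and 29.1 FPKM in untreated libraries, 29.8, 29.6 and 28.03 at 4OHT day 5 and 92.0, 87.6 and 113 in long-term KO. The long-term KO libraries were all above the rest, and the other 2 groups overlapped. *Fosb* was at 1.90, 2.57 and 1.94 FPKM in untreated libraries, 2.05, 2.35 and 2.48 at day 5 and 7.83, 8.203 and 9.24 in long-term KO, with the same overlap. Both were called higher in long-term KO against untreated cells (log2 fold change 1.65, SE 0.09, adjusted p = 4.43e-06 for *Fos*, and log2 fold change 1.94, SE 0.13, adjusted p = 1.07e-05 for *Fosb*) and against day 5 (log2 fold change 1.73 and 1.83, adjusted p = 3.88e-06 and 1.58e-05). These 4 calls held with any 1 library left out.

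*Fos* fell with 4OHT under siCtrl. It was at 256 and 256 FPKM with siCtrl, 39.9 and 36.3 with siDnmt1, 46.3 and 5.43 with 4OHT + siCtrl and 7.92 and 21.9 with 4OHT + siDnmt1, so that both siCtrl libraries were above all 6 others. *Fosb* was at 33.1 and 30.3 FPKM with siCtrl, 3.65 and 3.91 with siDnmt1, 7.96 and 0.392 with 4OHT + siCtrl and 0.353 and 4.12 with 4OHT + siDnmt1. *Fos* was called lower with 4OHT + siCtrl (log2 fold change -4.001, SE 0.96, adjusted p = 0.0442), and *Fosb* was not called (log2 fold change -3.997, SE 1.46, adjusted p = 0.119). The replicates of 4OHT + siCtrl and of 4OHT + siDnmt1 differed more than 2-fold in both genes, and this spread enters all comparisons of the fit. The call of *Fos* was lost without siCtrl replicate 1 (adjusted p = 0.174) or replicate 2 (adjusted p = 0.205), and its value was -2.47 without 4OHT + siCtrl replicate 2. *Fosb* was called without 4OHT + siCtrl replicate 1, at -6.01 (adjusted p = 0.0235). With siDnmt1 against siCtrl the differences were -2.75 for *Fos* (SE 0.96, adjusted p = 0.137) and -3.04 for *Fosb* (SE 1.46, adjusted p = 0.255). Fitted with only these 2 groups, whose replicates lay close, both were called lower (adjusted p = 0.000245 and 0.000384).

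In the inhibitor experiment *Fos* was at 93.9 and 93.6 FPKM in untreated libraries, 24.1 and 81.7 with TSA, 386 and 161 with PD0325901, 62.2 and 42.9 at 4OHT day 6 and 104 and 124 with 4OHT + PD0325901. Both groups given PD0325901 were above the untreated libraries, and both other treated groups were below them. None of these differences was called for *Fos*, with a log2 fold change of 1.41 for PD0325901 (SE 0.58, adjusted p = 0.155). *Fosb* was at 9.005 and 10.99 FPKM in untreated libraries, 2.31 and 3.33 with TSA, 26.5 and 16.5 with PD0325901, 5.397 and 8.38 at 4OHT day 6 and 10.4 and 9.12 with 4OHT + PD0325901. *Fosb* was called lower with TSA (log2 fold change -1.80, SE 0.31, adjusted p = 0.00168), which held with any 1 library left out. With PD0325901 it missed the threshold (log2 fold change 1.07, SE 0.31, adjusted p = 0.0596), and it was called without PD0325901 replicate 2 at 1.41 (adjusted p = 0.0435), with a pseudocount of 1 (adjusted p = 0.0490) and with median-ratio scaling (adjusted p = 0.0438).

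*Jun*, whose protein pairs with Fos members or with itself, was called in long-term KO and in no comparison of the siRNA or inhibitor experiments. In total RNA it was at 46.9, 48.9 and 51.5 FPKM in untreated libraries, 35.4, 32.7 and 37.1 at 4OHT day 5 and 22.1, 22.1 and 20.3 in long-term KO. The 3 groups did not overlap and went down in this order. *Jun* was called lower in long-term KO (log2 fold change -1.19, SE 0.06, adjusted p = 2.87e-06), also with any 1 library left out, whereas the difference at day 5 was under 2-fold (log2 fold change -0.48, SE 0.06, adjusted p = 0.00103). In the siRNA experiment it was at 64.2 and 63.0 FPKM with siCtrl, 59.4 and 58.4 with siDnmt1, 73.3 and 33.7 with 4OHT + siCtrl and 62.8 and 69.1 with 4OHT + siDnmt1. Over the 10 inhibitor libraries it ranged from 37.6 to 67.5 FPKM, with 47.5 and 49.9 FPKM in untreated and 58.7 and 64.2 at 4OHT day 6.

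*Junb*, an immediate early gene whose protein can antagonize Jun, fell at day 6 of 4OHT in both experiments that include it. With siCtrl it was at 357 and 344 FPKM, with siDnmt1 at 200.4 and 187, with 4OHT + siCtrl at 181 and 78.2 and with 4OHT + siDnmt1 at 84.4 and 83.8. The siCtrl libraries were above all others, and the 4OHT + siCtrl libraries lay on either side of 4OHT + siDnmt1. It was called lower with 4OHT + siCtrl (log2 fold change -1.56, SE 0.35, adjusted p = 0.0365). The call was lost without siCtrl replicate 1 (adjusted p = 0.161) or replicate 2 (adjusted p = 0.180), and without 4OHT + siCtrl replicate 2 the change was under 2-fold, at -0.96 (adjusted p = 0.00224). With 4OHT + siDnmt1 against siDnmt1 the difference was -1.20 (SE 0.35, adjusted p = 0.0675).

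*Junb* was at 248 and 263 FPKM in untreated libraries of the inhibitor experiment, 99.6 and 78.1 at 4OHT day 6, 113 and 99.9 with 4OHT + PD0325901, 227 and 317 with TSA and 275 and 99.9 with PD0325901. Only the 2 groups given 4OHT lay wholly below the untreated libraries, and the PD0325901 libraries lay on either side of them. *Junb* was called lower at day 6 (log2 fold change -1.53, SE 0.41, adjusted p = 0.0333), and the call was lost when any 1 of the 4 libraries was left out (log2 fold change -1.71 to -1.36, adjusted p 0.0731 to 0.139). In total RNA *Junb* was at 73.7, 76.3 and 82.9 FPKM in untreated libraries, 76.7, 77.5 and 91.2 at day 5 and 111, 108 and 106 in long-term KO, a difference of 0.48 for long-term KO that was under 2-fold (SE 0.08, adjusted p = 0.000965). The value of long-term KO replicate 1 comes from a joined row on chromosome 8 from 87480509 to 87502647 that also covers neighbouring genes.

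*Jund*, the Jun member that is expressed most constantly and restrains growth in fibroblasts, was higher with both inhibitors. It was at 41.4 and 44.7 FPKM in untreated libraries, 70.1 and 82.2 with TSA, 105 and 82.0 with PD0325901, 58.4 and 49.1 at 4OHT day 6 and 99.3 and 94.1 with 4OHT + PD0325901. Every treated library was above both untreated ones. It was called higher with PD0325901 (log2 fold change 1.11, SE 0.15, adjusted p = 0.00393), and without PD0325901 replicate 1 the change was under 2-fold, at 0.93 (adjusted p = 0.0206). Without PD0325901 replicate 2, the library whose title line and label differ, it was 1.28 (adjusted p = 0.00562). With TSA (log2 fold change 0.82, SE 0.15, adjusted p = 0.00233) and with 4OHT + PD0325901 against day 6 (log2 fold change 0.85, SE 0.15, adjusted p = 0.0175) the adjusted p was under 0.05 at a change under 2-fold. In the siRNA experiment *Jund* stayed between 52.4 and 66.2 FPKM in all 8 libraries, and in total RNA between 28.04 and 38.7 FPKM in all 9.

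*Atf3*, which stress signals induce, was higher with TSA and lower in long-term KO. In the inhibitor experiment it was at 17.4 and 17.0 FPKM in untreated libraries, 144 and 70.1 with TSA, 39.8 and 21.7 with PD0325901, 29.2 and 51.8 at 4OHT day 6 and 56.3 and 71.1 with 4OHT + PD0325901. Every treated library was above both untreated ones. It was called with TSA (log2 fold change 2.54, SE 0.42, adjusted p = 0.00151), also with any 1 library left out, and not at day 6 (log2 fold change 1.17, SE 0.42, adjusted p = 0.0808), although it was at day 6 in a fit of the 2 groups alone (adjusted p = 0.0487). Among siRNA libraries *Atf3* was at 24.3 and 21.1 FPKM with siCtrl, 54.2 and 48.3 with siDnmt1, 73.9 and 19.8 with 4OHT + siCtrl and 106 and 119 with 4OHT + siDnmt1. Both 4OHT + siDnmt1 libraries were above all others, and no difference was called. The value of siDnmt1 replicate 1 has a deposited interval from 0 to 11728 FPKM, so that it is uncertain. The 4OHT + siCtrl replicates lay on either side of siDnmt1, and 4OHT + siDnmt1 against 4OHT + siCtrl was 1.55 (adjusted p = 0.199), or 2.50 (adjusted p = 0.000759) without 4OHT + siCtrl replicate 1. Against siCtrl, 4OHT + siCtrl without its replicate 2 was called higher, at 1.70 (adjusted p = 0.00224).

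In total RNA *Atf3* was at 19.9, 19.2 and 19.1 FPKM in untreated libraries, 14.6, 14.2 and 15.0 at 4OHT day 5 and 9.36, 3.03 and 9.25 in long-term KO. The 3 groups did not overlap. It was called lower in long-term KO against untreated (log2 fold change -1.58, SE 0.40, adjusted p = 0.0102), with -1.05 without long-term KO replicate 2, the library at 3.03 FPKM. The deposited interval of that library implies 454 fragments, against 408 and 470 in the other two, so that its lower FPKM did not come with fewer fragments. The call against day 5 (log2 fold change -1.17, SE 0.40, adjusted p = 0.0362) was lost without any 1 of the 3 day 5 libraries (adjusted p = 0.0807, 0.0767 and 0.0832 for replicates 1, 2 and 3), and without long-term KO replicate 2 the change was under 2-fold, at -0.64.

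Most genes that read out MEK-ERK signalling fell under PD0325901. Of 10 MEK-ERK output genes (phosphatases of the *Dusp* family, *Spry* inhibitors, *Etv4* and *Etv5*, *Egr1*, *Phlda1* and *Ier3*), 7 were called lower with PD0325901 and none higher (background 7.25%). Their median log2 fold change was -2.00, against -0.069 over all genes. *Etv4*, an ETS factor, was at 13.8 and 15.3 FPKM in untreated libraries and 0.103 and 0.0350 with PD0325901, and *Dusp6*, an ERK phosphatase, was at 44.5 and 46.5 FPKM in untreated and 9.82 and 3.94 in PD0325901 libraries (log2 fold change -2.85, SE 0.38, adjusted p = 0.00398). *Spry4* and *Etv5* were called lower too (log2 fold change -5.42 and -4.85, adjusted p = 0.000371 and 0.000401). The median of the 8 members in the same comparison was 0.36. With 4OHT + PD0325901 against day 6, 8 of the 10 output genes were called lower (median -2.74, all genes 0.041, background 3.78%), whereas no AP-1 member was called (median 0.61). In long-term KO, which had no inhibitor, 7 of 10 were called lower against untreated cells (median -1.23, background 13.7%), led by *Etv4* (log2 fold change -3.39, SE 0.07, adjusted p = 4.72e-08) and *Etv5* (log2 fold change -2.21, SE 0.05, adjusted p = 4.52e-08). In total RNA the 10 genes include *Dusp4*, which reached 1 FPKM in the 4OHT day 5 libraries alone. At 4OHT day 5, with siDnmt1 and with 4OHT + siCtrl, 0 of 10 were called in limma (background 3.45%, 4.83% and 6.04%).

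**Figure D3:**
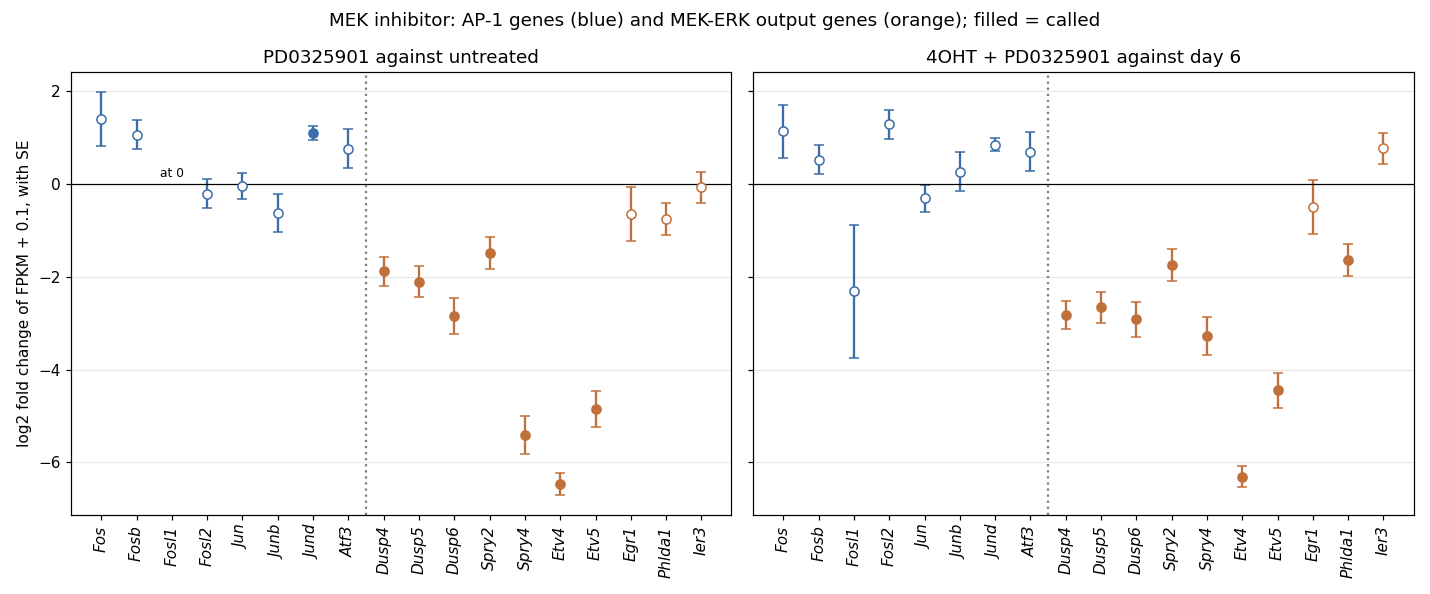
Fitted log2 fold change with its SE for AP-1 genes (blue) and MEK-ERK output genes (orange) with PD0325901 against untreated cells (left) and with 4OHT + PD0325901 against 4OHT day 6 (right), where filled points were called and "at 0" marks *Fosl1*. The output genes called are below 0 on both sides, and *Jund* is the only AP-1 gene with a filled point.

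Of 17 AP-1 target genes known from other cells, 12 to 14 were tested in each experiment, and their calls were mixed. Of these, *Mmp10* passed the filter through the TSA libraries alone and *Mmp9* through the long-term KO libraries alone, so both are left out of the counts and medians of the experiment concerned. With PD0325901, 2 of 13 were called higher and 2 lower (median -0.15, background 7.25%). *Spp1*, which encodes osteopontin, was at 424 and 410.4 FPKM in untreated libraries and 25.3 and 21.5 with PD0325901, and *Ccnd1*, which encodes cyclin D1, was at 36.3 and 37.2 FPKM in untreated and 9.35 and 4.33 in PD0325901 libraries, both called lower (log2 fold change -4.16 and -2.51). *Plau*, which encodes urokinase, was called higher (log2 fold change 1.07). At 4OHT day 6, 4 of 13 were called higher and none lower (median 0.72, all genes 0, background 11.1%), with *Il6* among the 4. *Il6*, a cytokine gene, was at 0.162 and 0.445 FPKM in untreated and 1.67 and 6.46 in day 6 libraries, and reached 1 FPKM only in libraries given 4OHT. *Il6* thus entered the test through groups in which it was high. The 4 calls and the median at day 6 include it, so neither is read as a result about the target genes. *Ezr*, which links membrane and actin, was called higher at 1.76. *Mmp10* was listed at 0 in both untreated libraries, at 0.279 and 0.427 FPKM at day 6 and at 2.23 and 6.17 FPKM with TSA. In long-term KO, 7 of 11 were called lower and none higher against untreated cells (median -1.30, background 13.7%). They were led by *Spp1* (-2.49), *Hbegf* (-2.42), *Vegfa* (-1.96) and *Timp1* (-1.74). At day 5 *Vegfa* alone of 11 was called (log2 fold change -1.18, SE 0.05, adjusted p = 3.28e-06, background 3.45%). With TSA, 6 of 13 were called higher and 2 lower, against the background of 32.1%. In the TSA libraries the 3 epithelial markers summed to 30.8 and 31.8 FPKM against 1.11 to 1.30 in untreated ones, and the part of this in the TSA results, those of AP-1 members included, was not tested. The 8 fibroblast markers summed to 4145 to 4524 FPKM with PD0325901 against 2668 to 2910 in untreated libraries.

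Among other leucine zipper partners (13 genes, 8 or 9 tested), *Maf* was called most often. It was at 40.8 and 42.1 FPKM in untreated, 5.26 and 6.07 in day 6, 7.30 and 5.25 in TSA and 16.8 and 21.7 in PD0325901 libraries, and was called lower in these 3 comparisons (-2.85, -2.72 and -1.11) and higher with 4OHT + PD0325901 against day 6 (log2 fold change 1.63, SE 0.20, adjusted p = 0.00504). Its interaction of 4OHT and PD0325901 was called (log2 fold change 2.75, SE 0.29, adjusted p = 0.00953). Among siRNA libraries *Maf* was at 31.7 and 32.5 FPKM with siCtrl, 4.28 and 2.96 with siDnmt1 and 9.32 and 3.70 with 4OHT + siCtrl, and called lower in both. *Creb5* was called higher with siDnmt1 (1.72) and with 4OHT + siCtrl (1.97). At 4OHT day 5 none of 8 partners was called (background 3.45%). Of the 12 ERK and JNK kinase genes, 11 were tested and none was called with PD0325901 (background 7.25%) or at day 6 (background 11.1%). *Rps6ka2*, an ERK-activated kinase, was called lower at 4OHT day 5 (log2 fold change -1.04, SE 0.06, adjusted p = 2.35e-05) and in long-term KO (-1.51) and higher with TSA (1.11). *Map2k7*, which encodes a kinase that activates JNK, was called higher in long-term KO (1.22) and lower with TSA (-2.11), and *Mapk3*, which encodes ERK1, higher in long-term KO (1.12). Of 9 factors that act on the *Fos* and *Jun* promoters, such as *Srf* and *Elk1*, 8 or 9 were tested. With TSA, 2 of 8 were called, below the share of all genes (32.1%), with *Srf* lower (-1.15) and *Mkl1* higher (1.09), and none was called in the other comparisons.

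The RNA assigned to VL30 U3 class I elements was put beside the AP-1 levels as the summed FPKM times length (in kb) of unannotated loci at least 50% inside 1 of 71 elements. It was 68.8, 58.1 and 66.4 in untreated total RNA libraries, 3179, 3144 and 5002 at 4OHT day 5 and 703.02, 694 and 698 in long-term KO. In the siRNA experiment it was 171 and 117 with siCtrl, 1194 and 1205 with siDnmt1, 6790 and 12361 with 4OHT + siCtrl and 8443 and 7917 with 4OHT + siDnmt1. With the inhibitors it was 238 and 233 in untreated libraries, 7311 and 9362 at 4OHT day 6, 26853 and 29621 with TSA, 3.01 and 6.96 with PD0325901 and 441 and 343.1 with 4OHT + PD0325901. Within the inhibitor experiment the PD0325901 libraries held the lowest VL30 RNA and listed *Fosl1* at 0, which can be a failed estimate. Both VL30 RNA and *Fosl1* were higher at day 6 than with 4OHT + PD0325901. They differed with TSA, where VL30 RNA was high and *Fosl1* at 4.61 and 0 FPKM, and in long-term KO, where VL30 RNA was above the untreated libraries and *Fosl1* below. *Fosl2* was lower in 4OHT day 5, day 6 and TSA libraries, where VL30 RNA was high, but not with siDnmt1, where VL30 RNA was 1194 and 1205 against 171 and 117 with siCtrl and *Fosl2* at 32.1 and 31.6 FPKM against 35.1 and 32.6. *Fos* was at 386 and 161 FPKM in the PD0325901 libraries, its highest values of that experiment, where VL30 RNA was lowest. *Atf3* was above untreated levels in both TSA and PD0325901 libraries. As fragments per M fragments of depth, a measure added after the data were seen, VL30 RNA was 2873 and 4895 with TSA, 99.0 and 94.5 in untreated and 4085 and 5152 in day 6 libraries. These are descriptions with no test, and whether any member acts on VL30 was not tested.

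**Figure D4:**
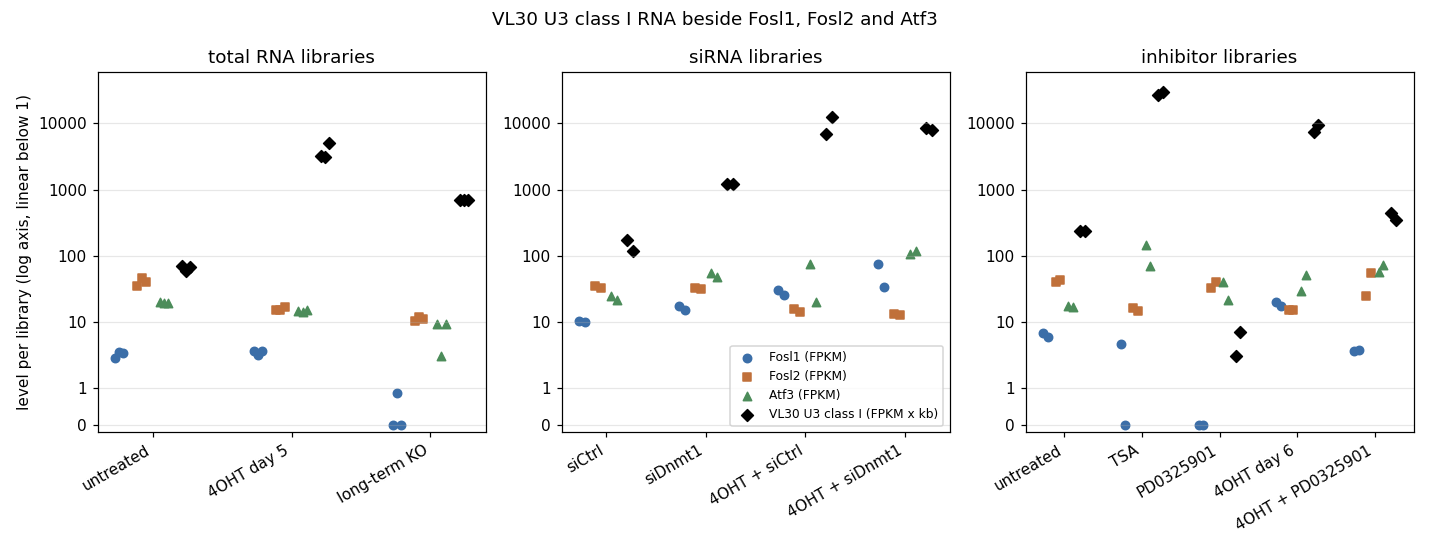
Level per library (log axis, linear below 1) of VL30 U3 class I RNA in summed FPKM times kb (black) and of *Fosl1*, *Fosl2* and *Atf3* in FPKM (blue, orange and green), one panel per experiment. VL30 RNA ranges from 3.01 and 6.96 with PD0325901 to 26853 and 29621 with TSA in the inhibitor panel, in which *Fosl1* is listed at 0 in both PD0325901 libraries.

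The genes whose pattern over the 10 inhibitor libraries was most like that of a called member were named by Pearson's r of log2(FPKM + 0.1), as a description over libraries that share groups and with no p. For *Fosl1* they were *Sephs2* (r = 0.963), *Exoc3l4* (0.939) and *Arhgap22* (0.938). *Arhgap22* was at 17.3 and 14.3 FPKM in untreated, 20.2 and 22.8 in day 6, 7.04 and 6.00 in PD0325901 and 11.5 and 14.8 in 4OHT + PD0325901 libraries. For *Jund* they were *Cdc42se2* (r = 0.967), *Avpr1a* (0.961) and *Sox11* (0.958). *Sox11*, a developmental transcription factor, was at 0.677 and 0.651 FPKM in untreated and 3.86 and 2.98 FPKM in PD0325901 libraries.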

How the data were processed

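RNA of *Setdb1* cKO iMEFs was sequenced in 27 libraries, in 3 experiments. Alignment by the authors used TopHat2 2.0.12 and mm9, keeping 1 position per read with several hits, and the FPKM values per assembled locus were computed by the authors with Cufflinks against RefSeq and deposited with intervals. Read layout of the inhibitor libraries is not given in the sources used here. Tables of the authors' own fold changes and p-values were not used. Genes were matched by symbol, or in total RNA by the row covering 95% of the locus. Fragments behind a value were inferred from its deposited interval. Genes that reached 1 FPKM in 3 total RNA, 2 siRNA or 2 inhibitor libraries were tested on log2(FPKM + 0.1) with limma 3.58.1 in R 4.3.3 (moderated, mean trend, Benjamini-Hochberg adjustment), each experiment apart with all its groups. The fit was tested on simulated data, where 171 of 200 changed genes were recovered for day 5 against untreated (10422 genes, 3 false calls), 175 for siDnmt1 against siCtrl (10277 genes, 9 false calls) and 180 for day 6 (10449 genes, 7 false calls). The planted changes were all larger than the 2-fold limit and lay only in genes above a lowest mean FPKM. Recovery of smaller changes, or of changes in genes near 0, was not measured. All 8 members were named, with up to 4 called genes of largest change per fixed list and comparison, and the 3 genes of most similar pattern for members called with PD0325901. Alternatives were pseudocounts of 1 and 0.01, no filter, median-ratio scaling, the compared groups alone, a replicate block and each library left out. Leaving out genes that share a row, and VL30 RNA in fragments, were added after the data were seen. Members and lists were chosen with earlier results of these data known. A gene of the target list is not reported here by name.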

Additional observations from a re-analysis of the deposited data

Results flagged for a closer look

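*Jun*, *Jund* and *Atf3* differed in direction between experiments, with groups that did not overlap on either side. *Jun* was lower at 4OHT day 5 (log2 fold change -0.48) and higher at day 6 in the inhibitor experiment (0.34). *Jund* was lower with 4OHT + siCtrl (-0.22) and higher at day 6 (0.32). *Atf3* was lower at day 5 (-0.41) and higher at day 6 (1.17). None of these 6 differences was called, the experiments were made and normalized separately, and the difference between them was not tested. At day 6 no member overlapped the untreated libraries (4 higher and 4 lower), so lack of overlap there does not set these members apart. The share of all genes without overlap was not counted.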

How the results depend on the processing

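The calls of *Fosl2* at day 5, in long-term KO, with 4OHT under both siRNAs and with TSA, those of *Fos*, *Fosb*, *Fosl1*, *Jun* and *Atf3* in long-term KO against untreated cells, those of *Fos*, *Fosb* and *Fosl1* in long-term KO against day 5, and those of *Fosb* and *Atf3* with TSA kept their direction and their side of the threshold under every alternative that gave a value. Over the single members, alternatives other than leaving out a library gave 654 values in the same direction and on the same side of the threshold, 11 that lost a call, 13 that gained one and 7 that turned direction. Leaving out a library gave 483, 28, 15 and 34. With no filter on low values, the number of genes called was 562 for day 5 against untreated (from 367), 235 for 4OHT + siDnmt1 against 4OHT + siCtrl (from 154), 50 for interaction of 4OHT and siDnmt1 (from 21). With only the compared groups in the fit, the number of genes called was 868 for siDnmt1 against siCtrl (from 511), 180 for 4OHT + siCtrl against siCtrl (from 639), 29 for 4OHT + siDnmt1 against 4OHT + siCtrl (from 154), 101 for 4OHT + PD0325901 against day 6 (from 427), 267 for 4OHT + PD0325901 against PD0325901 (from 503). With pseudocount 1, the number of genes called was 32 for interaction of 4OHT and siDnmt1 (from 21). The call was lost with no filter for *Fos* in 4OHT + siCtrl against siCtrl (adjusted p = 0.0632), *Fosl1* in 4OHT + siCtrl against siCtrl (adjusted p = 0.0620), *Junb* in 4OHT + siCtrl against siCtrl (adjusted p = 0.0536), *Junb* in day 6 against untreated (adjusted p = 0.0586), *Fosl1* in PD0325901 against untreated (adjusted p = 0.0615), with only the compared groups for *Atf3* in long-term KO against day 5 (adjusted p = 0.0809), *Fos* in 4OHT + siCtrl against siCtrl (adjusted p = 0.135), *Junb* in 4OHT + siCtrl against siCtrl (adjusted p = 0.141), *Fosl1* in 4OHT + siDnmt1 against siDnmt1 (adjusted p = 0.0522), and with median-ratio scaling for *Fosl1* in 4OHT + siCtrl against siCtrl (adjusted p = 0.0552). With median-ratio scaling the direction turned for *Fosl2* in siDnmt1 against siCtrl (0.0050), *Jun* in 4OHT + siDnmt1 against siDnmt1 (-0.0013), *Jun* in PD0325901 against untreated (0.038), *Junb* in TSA against untreated (-0.025), *Fosl2* in 4OHT + PD0325901 against PD0325901 (-0.094), *Jun* in 4OHT + PD0325901 against PD0325901 (-0.041), *Jund* in 4OHT + PD0325901 against PD0325901 (-0.053). As fragments per M fragments, the log2 ratio of VL30 RNA was 3.06 for 4OHT + siDnmt1 against siDnmt1 (from 2.77), 0.49 for 4OHT + siDnmt1 against 4OHT + siCtrl (from -0.16), 5.57 for day 6 against untreated (from 5.13), 5.28 for TSA against untreated (from 6.90). With 1 library left out, the number of genes called ranged from 73 to 106 for siDnmt1 against siCtrl, from 82 to 1108 for 4OHT + siCtrl against siCtrl, from 48 to 390 for 4OHT + siDnmt1 against siDnmt1, from 69 to 861 for 4OHT + siDnmt1 against 4OHT + siCtrl, from 11 to 466 for interaction of 4OHT and siDnmt1, from 658 to 1106 for day 6 against untreated, from 335 to 864 for PD0325901 against untreated, from 273 to 402 for 4OHT + PD0325901 against day 6, from 263 to 509 for 4OHT + PD0325901 against PD0325901, from 32 to 169 for interaction of 4OHT and PD0325901. The lowest and highest log2 fold changes of the 27 uncalled values that turned direction were, for day 5 against untreated, *Junb* -0.0082 to 0.12, for siDnmt1 against siCtrl, *Jund* -0.077 to 0.12, for 4OHT + siCtrl against siCtrl, *Jun* -0.91 to 0.20 and *Atf3* -0.19 to 1.70, for 4OHT + siDnmt1 against siDnmt1, *Fosb* -3.10 to 0.12 and *Jund* -0.24 to 0.0015, for 4OHT + siDnmt1 against 4OHT + siCtrl, *Fos* -1.80 to 1.26, *Fosb* -2.54 to 1.49, *Jun* -0.15 to 0.96, *Junb* -1.10 to 0.11, for interaction of 4OHT and siDnmt1, *Fosl1* -0.35 to 0.79, *Jun* -0.042 to 1.07, *Junb* -0.25 to 0.96, *Jund* -0.017 to 0.22, *Atf3* -0.57 to 1.32, for PD0325901 against untreated, *Jun* -0.14 to 0.063 and *Junb* -1.35 to 0.11, for TSA against untreated, *Jun* -0.22 to 0.47 and *Junb* -0.17 to 0.31, for 4OHT + PD0325901 against day 6, *Jun* -0.71 to 0.099, for 4OHT + PD0325901 against PD0325901, *Fosl2* -0.54 to 0.58, *Jun* -0.33 to 0.47, *Junb* -1.37 to 0.089, *Jund* -0.12 to 0.24, for interaction of 4OHT and PD0325901, *Fos* -0.90 to 0.36, *Jun* -0.67 to 0.14, *Atf3* -0.50 to 0.37.

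The labels give nothing that replicate numbers share. The correlation of same-numbered libraries ran from -0.0207 to 0.0996 in total RNA (5 of 9 libraries correlated best with their own number), -0.0675 to 0.0154 in siRNA and -0.0261 to 0.259 in inhibitor libraries. All 6 inhibitor pairs among PD0325901, 4OHT day 6 and 4OHT + PD0325901 were at 0.206 to 0.259 and the other 14 at 0.0374 or less. With 2 libraries a group, replicates 1 and 2 give the same r by construction, so the pairs are not separate values. That numbers went together in those 3 groups is only a hint from the data. With the replicate number as a block, the number of genes called was 78 for 4OHT + siDnmt1 against 4OHT + siCtrl, 13 for interaction of 4OHT and siDnmt1, the adjusted p of *Fos* in 4OHT + siCtrl against siCtrl was 0.0712 and that of *Fosl2* in 4OHT + PD0325901 against day 6 was 0.0434, and the block changed no other call of a member. Where a fit had 2 libraries a group, leaving out 1 left a lone sample that is assumed to vary like the other groups. The causes of these changes were not tested. *Fosl1* lies near 0 in several groups, where the pseudocount sets the fold change.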

Other observations

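*Il6*, an AP-1 target gene in the fixed list, was at 69.1, 0.287 and 0.496 FPKM in the 3 libraries of 4OHT day 5 and at 0.0995, 0.0471 and 0.0530 FPKM in untreated total RNA. A single library thus stood apart, and *Il6* in total RNA was singled out after its values were seen. The 4OHT + siCtrl libraries differed in the same direction for several members, with replicate 2 below replicate 1 for *Fos* (46.3 and 5.43 FPKM), *Fosb* (7.96 and 0.392), *Jun* (73.3 and 33.7), *Junb* (181 and 78.2) and *Atf3* (73.9 and 19.8), and close for *Fosl2* (15.4 and 14.3) and *Jund* (53.5 and 52.4).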
